A study of Homo sapiens with 12 samples.

Results

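The genes described here are 36 genes of DNA replication and nucleotide supply, measured in glioblastoma cell lines and in sublines of them that resist temozolomide. They were chosen by symbol as a fixed list of S-phase, replication fork and nucleotide synthesis genes. All 36 were found among the 31654 symbol rows that name a gene, and all 36 were among the 15449 genes tested.

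RNA sequencing was done on 12 libraries, 3 from each of 4 groups. U251MG and U87MG are the parental lines, both established human glioblastoma lines. U251TR and U87TR are their temozolomide-resistant sublines, obtained in vitro by exposing the parent repeatedly to rising concentrations of the drug. Temozolomide is the DNA-alkylating agent used against glioblastoma. All 4 groups were grown in DMEM with 10% FBS, and the labels name no drug in the medium of the sequenced cells. Each parent has 1 resistant subline, so resistance cannot be told apart from any other change that arose while that subline was made. The labels do not say whether libraries of a group came from separate cultures, so a p-value here reflects the spread among libraries that may be technical. The U87TR library codes form a number block of their own, separate from that of the remaining 9 libraries, so code block and resistance cannot be told apart in the U87 pair.

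Before a cell copies its genome, origin recognition complex proteins, CDC6 and CDT1 load the ring of MCM2 to MCM7 onto DNA, a step called licensing. In S phase CDC45, the GINS proteins and MCM10 turn that ring into an active helicase, and primase, the replicative polymerases, the sliding clamp PCNA and its RFC loader build the new strands. Ribonucleotide reductase, thymidylate synthase and thymidine kinase supply the deoxynucleotides, cyclin E starts the phase, and SLBP and the CAF-1 subunits supply and place new histones. Most of these genes are known as targets of the E2F transcription factors and are transcribed mainly in dividing cells.

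No header states the unit of the deposited values. They were read as FPKM from the values themselves, a unit that scales fragments by transcript length and library size so that levels of different genes can be compared. The table holds no read counts, so the depth behind a value is unknown. RRM2 and PCNA have processed pseudogenes, and how reads were shared with them is not given in the sources used here. TYMS overlaps ENOSF1 on the other strand, and no label states that counting used strand. The FPKM values of a library summed to between 695282 and 785754. Glioma markers were at 1 FPKM or more for 10 of 10 genes in both U251 lines and for 6 of 10 in both U87 lines, and SOX2 and S100B were listed at 0 in every U87MG library. Of 8 immune markers in the table, at most 1 reached that level in any line, and CD3D, CD3E and MS4A1 were listed at 0 in every U251MG, U251TR and U87MG library. The 8 summed to 0.62 to 0.93 FPKM in U251MG and 0.77 to 1.16 in U251TR. In U87MG they summed to 10.99 to 16.3 FPKM and in U87TR to 14.7 to 17.1. In these bulk samples a smaller share of cells in S phase and less RNA per cell cannot be told apart.

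A parental library stood apart in these genes. In U251MG replicate 2, 34 of the 36 genes were the highest of the 3 U251MG libraries, against 48.3% of all tested genes. The median log2 difference from the mean of replicates 1 and 3 was 0.63 for the 36 genes and 0.04 for all genes. ORC6 was the lowest there and RFC2 lay between its partners. Genes of G2 and mitosis shared the shift in part, with 20 of 24 highest in that library and a median difference of 0.34. The median coefficient of variation of the 36 genes was 29.8% in U251MG, 5.70% in U251TR, 9.47% in U87MG and 5.96% in U87TR, and over all genes it was 14.8% in U251MG. A smaller shift was seen in U87MG replicate 3, where 30 of the 36 genes were the lowest of their line against 42.7% of all genes. What made these libraries differ was not tested. The main counts of calls and most fold changes of single genes that use U251MG are given with and without replicate 2. The counts under other scalings, the changes of cell type markers and several differences between the changes are given on all libraries only.

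**Figure D1:**
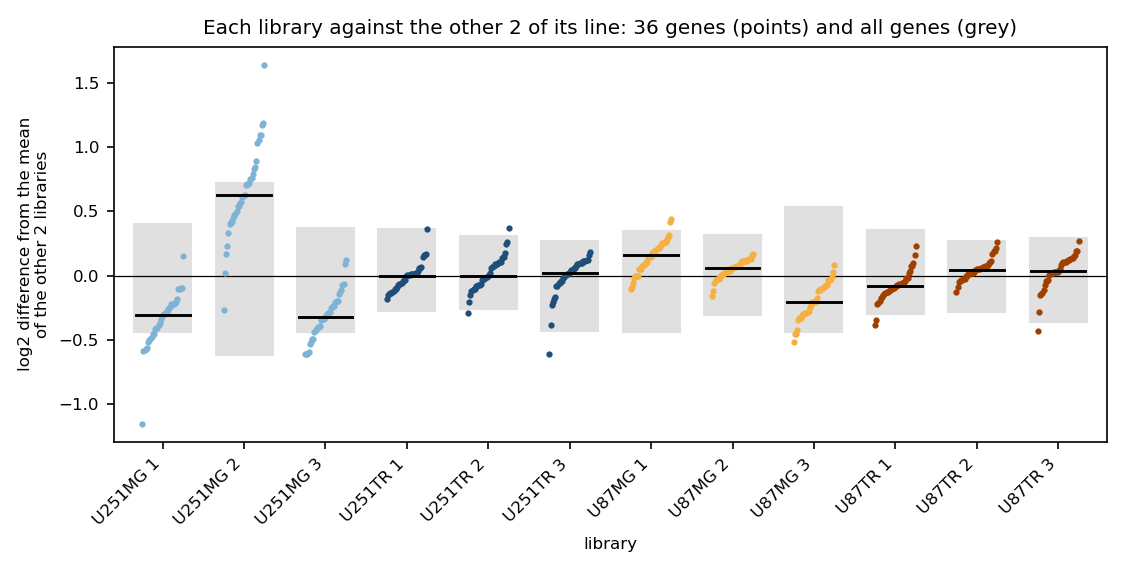
Each point is 1 of the 36 genes, placed by its log2(FPKM + 1) in the named library minus the mean of the other 2 libraries of its line, and the black bar is the median of the 36. The grey box spans the 5th to 95th percentile of all tested genes, and the points of U251MG replicate 2 are shifted up to a median of 0.63 while those of U87MG replicate 3 are shifted down to -0.20.

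RRM2, CDT1 and CCNE1 had the largest gains in U251TR over U251MG. Of the 36 genes, 15 rose (41.7%, against 33.6% of all tested genes) and 3 fell (8.33%, against 19.6%), by limma at an adjusted p under 0.05. The libraries of the 2 groups did not overlap for 17 of the 36 genes, against 58.9% of all tested genes. All 4 nucleotide supply genes of the list rose, as did 3 of 4 licensing genes (not ORC6) and 4 of 6 clamp, loader and flap nuclease genes (not PCNA and RFC4). The 3 that fell were MCM5, SLBP and CHAF1A. The median log2 fold change was 0.28 over the 36 genes and 0.10 over all genes. Without U251MG replicate 2 the counts were 22 higher, against 36.5% of all genes, and 3 lower, against 21.5%, and the medians were 0.45 and 0.12. Added to the higher genes there were MCM10, GINS2, GINS3, POLD1, POLE2, RFC4 and CCNE2, and ORC6 took the place of CHAF1A among the lower ones.

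Markers of cell type moved in the same comparison. Of 10 glioma markers 4 rose (40%, against 33.6% of all tested genes) and 5 fell (50%, against 19.6%) in U251TR. Among them were CHI3L1 (log2 fold change 9.77), GFAP (4.09) and PDGFRA (-2.70). Both endothelial markers tested of 5 in the table rose, CDH5 (0.68) and KDR (1.03), and the 5 summed to 9.57 to 10.6 FPKM in U251MG and 17.9 to 18.7 in U251TR. Of 4 neuron markers tested SYT1 fell (-1.28), and 6 in the table summed to 10.4 to 17.8 FPKM in U251MG and 8.06 to 10.6 in U251TR. The 1 immune marker tested fell as well (-0.37), in a list that summed to at most 1.16 FPKM in the U251 lines. These calls held without U251MG replicate 2, and GAD1 rose too. Markers also moved in U87TR, where on all libraries 3 of 10 glioma markers rose (30%, against 10.6%) and 3 fell (30%, against 17.2%). Of 2 endothelial markers tested 1 fell there, and of 4 neuron markers tested 1 rose. The part of these markers in the changes of the 36 genes was not tested.

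The scaling of the libraries bears on these counts. Median-of-ratios factors, quantile normalization and rescaling to TPM moved the median of all genes from 0.10 to 0.00, -0.01 and 0.20. The share of all calls that were higher moved with it, from 63.2% to 51.3%, 49.3% and 72.1%. The median of the 36 genes became 0.16, 0.12 and 0.40. The counts of the 36 genes became 14 higher and 6 lower, 14 and 4, and 17 and 2.

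On all libraries, few of these genes passed between U87TR and U87MG. MCM6, GINS3 and SLBP rose, 3 of 36 (8.33%, against 10.6% of all tested genes). RRM1, GINS4 and ORC6 fell, again 3 of 36 (8.33%, against 17.2%). On all libraries both shares lie near or below the background. The median log2 fold change was -0.02 over the 36 genes and -0.05 over all genes. U251MG replicate 2 enters this comparison only through the spread shared by the 4 groups. The median coefficient of variation of the 36 genes was 29.8% in U251MG, 9.47% in U87MG and 5.96% in U87TR. Without that library 7 genes rose (19.4%, against 13.9% of all genes) and 8 fell (22.2%, against 22.4%). The higher share then lay above the background and the lower share near it. Added there were MCM3, RRM2, TYMS and TK1 as higher and CDT1, MCM2, RFC5, FEN1 and CHAF1A as lower. GINS3, RRM2, TYMS and TK1 were then higher and ORC6 lower in both resistant lines. The fold changes in U87TR are the same in both fits. The share of all calls that were higher was 38.1%, and it was 49.1% with median-of-ratios factors, 48.8% with quantile normalization and 46.2% as TPM. The 36 genes then gave 4 higher and 2 lower, 3 and 2, and 3 and 2. The groups did not overlap for 17 genes, against 46.6% of all genes.

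The change on resistance differed between the lines for 15 of the 36 genes, against 47.6% of all genes. The change in U87 minus the change in U251 was lower than 0 for 12 genes, against 32.1% of all genes, and higher for 3, against 15.4%. MCM5, MCM6 and SLBP were the 3 with the higher change in U87. Without U251MG replicate 2 the counts were 20 lower, against 36.6% of all genes, and 3 higher, against 17.9%. Over all genes the share of these calls that were higher was 32.4%, and it was 47.5% with median-of-ratios factors, 48.6% with quantile normalization and 27.9% as TPM. The 36 genes then gave 7 lower and 5 higher, 8 lower and 5 higher, and 12 lower and 3 higher. On all libraries RRM1 and SLBP passed in both lines, each in opposite directions. Another 14 genes rose in U251TR there and did not pass in U87TR, among them CDT1, RRM2 and CCNE1. Without U251MG replicate 2, CDT1, RFC5, FEN1 and RRM1 rose in U251TR and fell in U87TR, and SLBP did the reverse. GINS3, RRM2, TYMS and TK1 then rose in both, and CCNE1 was among 14 genes that rose in U251TR and did not pass in U87TR. No share of all genes is given for these patterns.

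**Figure D2:**
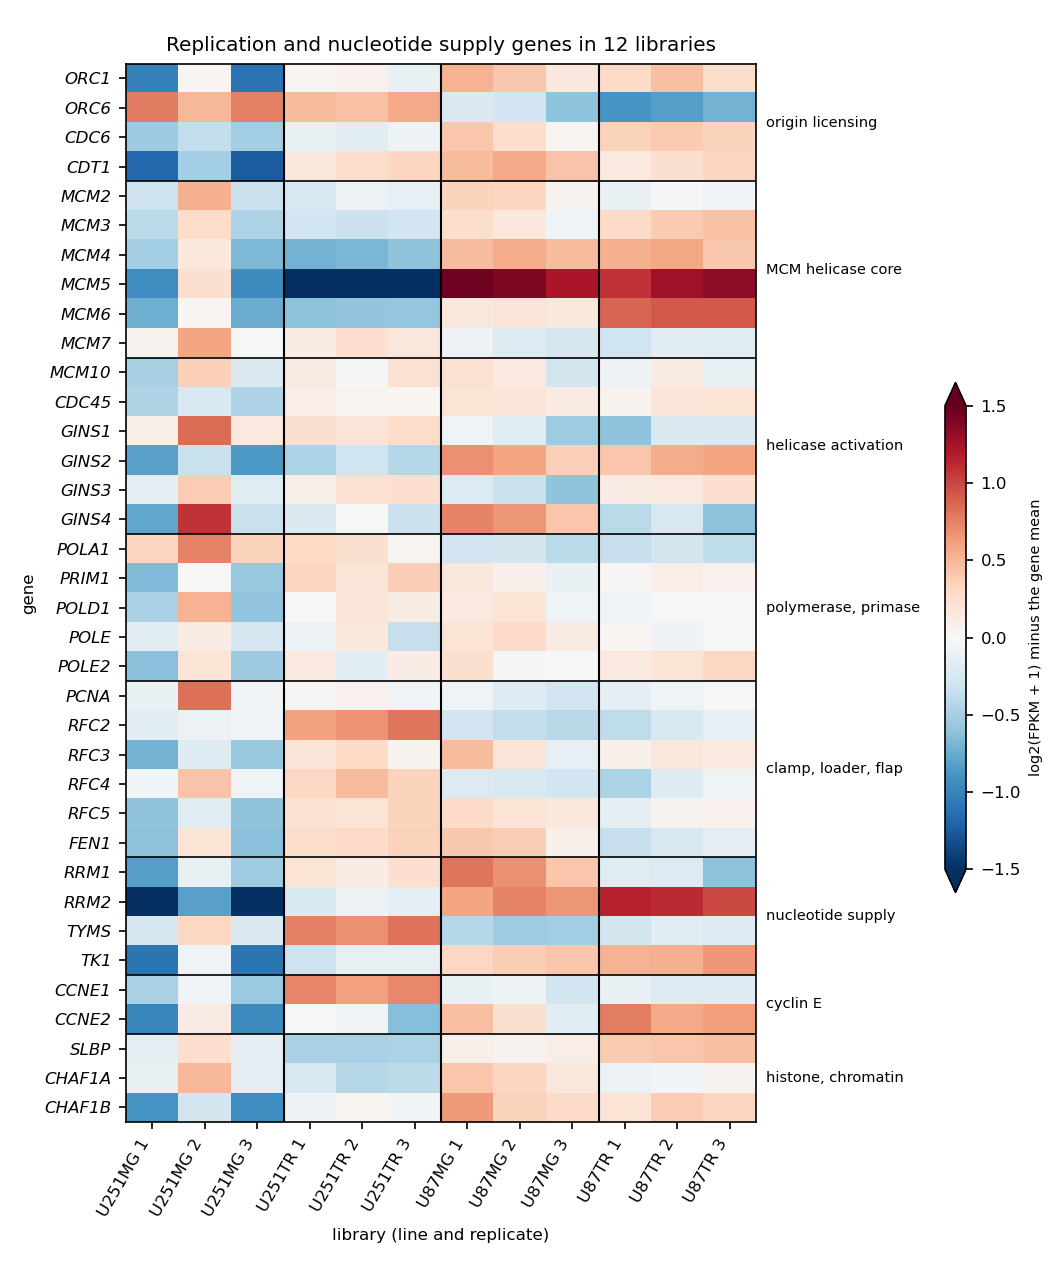
Rows are the 36 genes in their role groups and columns are the 12 libraries, and the colour is log2(FPKM + 1) minus the mean of the gene over the 12 libraries, cut at 1.5 in either direction. U251MG replicate 2 is redder than its partners down most rows, MCM5 is darkest blue in U251TR, and RRM2 goes from blue in U251MG to red in U87TR.

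**Figure D3:**
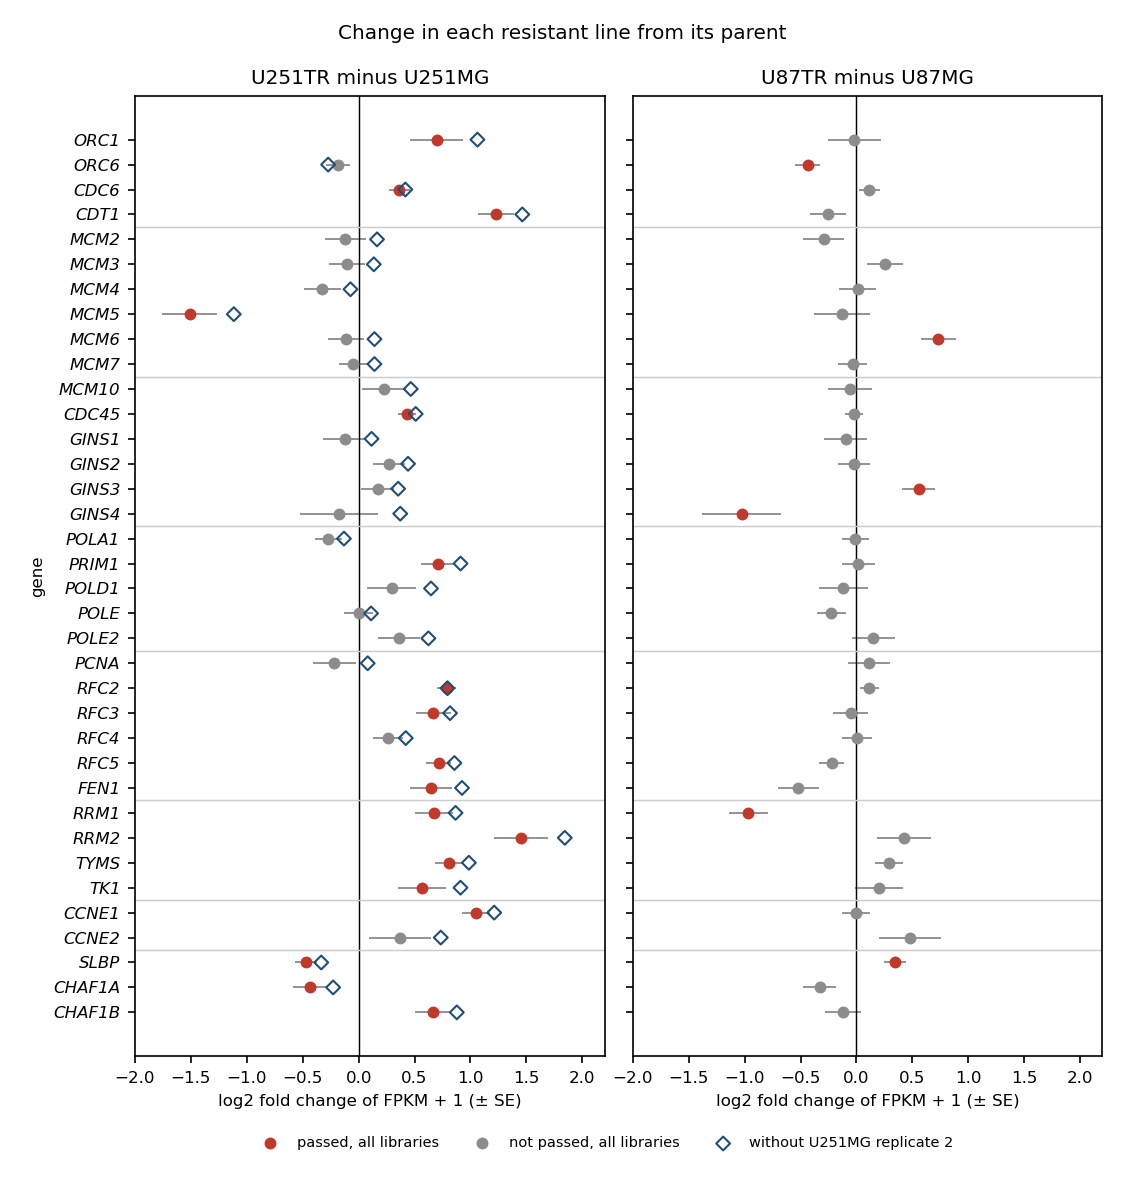
Points are log2 fold changes on log2(FPKM + 1) with their standard errors, red where the gene passed and grey where it did not, with 12 libraries in the fit. Open diamonds in the left panel give the fold change without U251MG replicate 2, and they lie to the right of the points for all genes but RFC2, where they coincide, and ORC6, where they lie to the left.

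The starts of a few of these genes are shown because the genes move in different ways although the family is known for shared control. Windows of 150 bases before the annotated start, from RefSeq on GRCh38.p14, were taken for CDT1, RRM2 and CCNE1, which rose in U251TR, for MCM6, which rose in U87TR, and for RRM1 and SLBP, which went opposite ways. Each is written 5′ to 3′ in the direction of transcription. Capitals mark E2F-type strings and CCAAT strings, each searched on both strands, and overlapping matches run together. The E2F-type string was GCGGGAA in its plain form, with GCGCGAA as another form and with GCGCCAA as the last form searched.
CDT1: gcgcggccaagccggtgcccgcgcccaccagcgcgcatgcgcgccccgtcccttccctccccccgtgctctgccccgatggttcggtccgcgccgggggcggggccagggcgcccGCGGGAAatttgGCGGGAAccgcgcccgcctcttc
RRM2: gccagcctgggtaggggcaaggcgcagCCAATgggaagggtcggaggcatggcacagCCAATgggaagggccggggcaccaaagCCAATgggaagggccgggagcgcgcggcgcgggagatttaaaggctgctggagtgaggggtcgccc
CCNE1: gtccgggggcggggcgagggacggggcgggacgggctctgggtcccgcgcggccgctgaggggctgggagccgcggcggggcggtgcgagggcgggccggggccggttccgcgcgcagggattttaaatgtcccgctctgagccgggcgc
MCM6: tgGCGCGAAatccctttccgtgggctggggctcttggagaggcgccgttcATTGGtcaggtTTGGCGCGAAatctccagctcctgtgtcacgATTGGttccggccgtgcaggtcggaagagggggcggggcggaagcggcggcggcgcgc
RRM1: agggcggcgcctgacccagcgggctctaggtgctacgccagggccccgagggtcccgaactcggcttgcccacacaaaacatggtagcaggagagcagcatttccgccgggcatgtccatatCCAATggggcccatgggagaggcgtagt
SLBP: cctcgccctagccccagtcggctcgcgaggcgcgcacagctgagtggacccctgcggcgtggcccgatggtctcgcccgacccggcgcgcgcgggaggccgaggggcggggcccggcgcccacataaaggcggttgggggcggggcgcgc
CDT1 (chr16:88803639-88803788, plus strand) held 2 E2F-type strings close to the start. RRM2 (chr2:10122589-10122738, plus strand, the first listed of its 2 annotated starts) held 3 CCAAT strings. MCM6 (chr2:135876444-135876593, minus strand) held 3 E2F-type strings, of which 2 overlap, and 2 CCAAT strings. RRM1 (chr11:4094535-4094684, plus strand) held 1 CCAAT string. CCNE1 (chr19:29811841-29811990, plus strand) and SLBP (chr4:1712320-1712469, minus strand) held neither string in these letters. Promoter entries were matched for 32 of the 36 genes, with 40 windows of 250 bases before the start. An E2F-type string was in 18 of the 40 (45%), and in 9.32% of 35116 windows of that length over all genes. At that length it was in the window of RRM1 and in 1 of the 2 windows of RRM2, and not in those of CCNE1 and SLBP. CCAAT was in 24 (60%), against 32.0% of all windows. A match is a description of letters, not a binding site.

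The 4 nucleotide supply genes of the list rose in U251TR. There, 25 further genes of nucleotide supply gave 7 higher (28%, against 33.6% of all tested genes) and 7 lower (28%, against 19.6%). Their median log2 fold change was -0.01. RRM2, the small subunit of ribonucleotide reductase, which makes deoxynucleotides from ribonucleotides, was at 38.01, 86.99 and 37.9 FPKM in U251MG and at 131, 146 and 140.0 FPKM in U251TR. The groups did not overlap, with replicate 2 the highest of U251MG. This was a log2 change of 1.45 (adjusted p = 0.00032, SE 0.24), and 1.84 without that replicate. In U87MG the gene was at 233, 258 and 244 FPKM and in U87TR at 345, 337 and 307 FPKM. These groups did not overlap either, but the change of 0.43 (adjusted p = 0.218, SE 0.24) did not pass on all libraries. It passed under 3 of 23 alternatives, among them without U251MG replicate 2 (SE 0.07, adjusted p = 0.000495) and with only the U87 groups in the fit. RRM2 had the highest mean level of the 36 genes.

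RRM1, the large subunit of the same enzyme, rose in U251TR and fell in U87TR. It was at 41.01, 67.9 and 50.2 FPKM in U251MG and 84.4, 79.1 and 87.4 FPKM in U251TR, without overlap. On the log2 scale it changed by 0.68 (adjusted p = 0.00553, SE 0.17), and 0.87 without U251MG replicate 2. In U87MG it was at 129, 118 and 98.2 FPKM and in U87TR at 64.8, 63.6 and 47.5 FPKM. Every U87TR library lay below every U87MG library, at a log2 fold change of -0.97 (adjusted p = 0.00137, SE 0.17). RRM1 lies on chromosome 11, where the median of the tested genes in U87TR was -0.26. The difference between the 2 changes was -1.64 (adjusted p = 0.00018, SE 0.24), and -1.83 without U251MG replicate 2. The ratio of RRM2 to RRM1 in FPKM was 0.988 ± 0.268 in U251MG, 1.67 ± 0.153 in U251TR, 2.16 ± 0.339 in U87MG and 5.69 ± 0.669 in U87TR (SD, n = 3). In U251MG it was 1.28 in replicate 2 and 0.927 and 0.755 in the others. The ratio was highest in U87TR, where RRM1 fell.

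TYMS, thymidylate synthase, which makes the thymine nucleotide dTMP, was at 124, 183 and 127 FPKM in U251MG and 249, 237 and 261 FPKM in U251TR. Its fold change on the log2 scale was 0.80 (adjusted p = 0.000172, SE 0.12), and 0.99 without U251MG replicate 2. In the U87 pair its means were 104 ± 4.01 and 128 ± 5.39 FPKM (SD, n = 3), and the change did not pass on all libraries. TK1, thymidine kinase of the salvage route, was at 60.6, 125 and 60.7 FPKM in U251MG and 105, 120.03 and 119.8 FPKM in U251TR, and replicate 2 of U251MG lay above all 3 U251TR libraries. The log2 fold change was 0.57 (adjusted p = 0.0406, SE 0.21), and 0.91 (adjusted p = 1.3e-06) without replicate 2. The call for TK1 was lost under 14 of 23 alternatives, with adjusted p of 0.0515 to 0.164, among them leaving out any 1 library other than U251MG replicate 2.

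**Figure D4:**
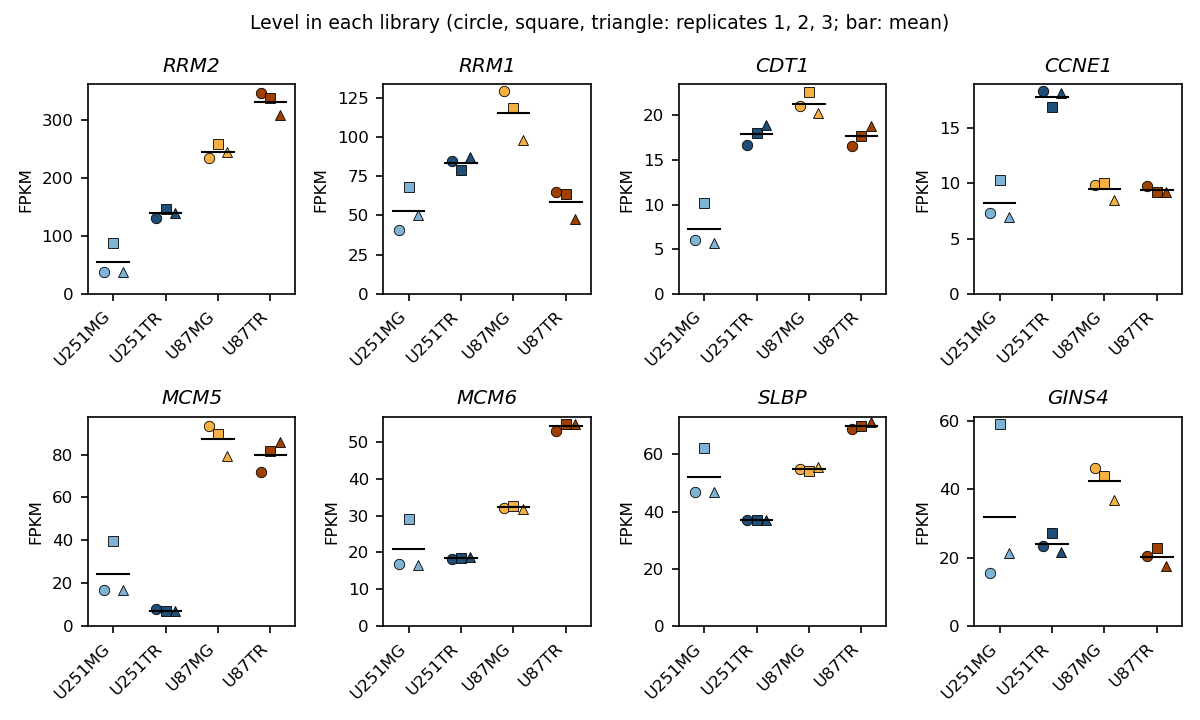
FPKM of 8 genes in each library, with circles, squares and triangles for replicates 1, 2 and 3 and a bar for the group mean, on linear axes that start at 0. RRM1 is high in U87MG and lower in U87TR while RRM2 is highest in U87TR, CCNE1 is raised in U251TR, MCM5 is lowest in U251TR, and the U251MG square stands above its partners in each panel.

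In origin licensing, CDT1 showed the largest gain in U251TR. CDT1, the loader of the MCM ring, was at 5.99, 10.2 and 5.69 FPKM in U251MG and 16.7, 18.1 and 18.9 FPKM in U251TR, without overlap. This was a log2 change of 1.23 (adjusted p = 4.56e-05, SE 0.16), and 1.46 without U251MG replicate 2. CDT1 was at 21.1, 22.6 and 20.2 FPKM in U87MG and 16.6, 17.7 and 18.8 FPKM in U87TR, with all U87TR libraries lower, and did not pass on all libraries. The difference between the changes was -1.48 (adjusted p = 0.000224, SE 0.23), and -1.72 without U251MG replicate 2. CDC6, which works with CDT1 in loading, had means of 18.2 ± 1.30 FPKM in U251MG and 23.6 ± 0.811 FPKM in U251TR (SD, n = 3), a log2 fold change of 0.36 (adjusted p = 0.00671, SE 0.10), and 0.42 without U251MG replicate 2.

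ORC1 and ORC6, subunits of the origin recognition complex, differed from each other. ORC1 was at 3.03, 7.33 and 2.79 FPKM in U251MG and 7.42, 7.55 and 6.55 FPKM in U251TR. Replicate 2 of U251MG fell within the U251TR range, and its 2 partners lay below it. The log2 fold change of 0.70 (adjusted p = 0.0263, SE 0.24) became 1.06 without that replicate, and the call was lost under 7 of 23 alternatives (adjusted p of 0.0611 to 0.114), among them without U251MG replicate 1 or 3 and without U251TR replicate 1 or 2. ORC6 was at 74.3, 60.9 and 73.2 FPKM in U251MG and 59.8, 58.7 and 64.1 FPKM in U251TR, with overlap through U251MG replicate 2, and did not pass on all libraries (log2 fold change -0.18). It passed as lower without replicate 2 (-0.27, adjusted p = 0.0427). ORC6 was at 36.7, 34.9 and 27.98 FPKM in U87MG and 22.8, 23.8 and 25.8 FPKM in U87TR, without overlap, a log2 fold change of -0.44 (adjusted p = 0.0111, SE 0.11). That call was lost without U87MG replicate 1 (adjusted p = 0.0505).

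Among the 6 subunits of the MCM ring, on all libraries, MCM5 alone passed in U251TR and MCM6 alone in U87TR. In U251TR MCM4 passed as lower with median-of-ratios factors and without U251MG replicate 3 (limma adjusted p down to 0.0221). MCM2 and MCM6 passed as higher there with U251MG replicate 2 and U87MG replicate 3 both left out (adjusted p = 0.0364 and 0.0442). With U251MG replicate 2 left out, MCM3 passed as higher (0.25, adjusted p = 0.0295) and MCM2 as lower (-0.29, adjusted p = 0.0149) in U87TR as well. MCM5 was at 16.98, 39.6 and 16.7 FPKM in U251MG and 7.81, 6.98 and 6.95 FPKM in U251TR, below every parental library. On the log2 scale it changed by -1.51 (adjusted p = 0.000279, SE 0.25), and -1.12 without U251MG replicate 2. MCM5 was at 93.3, 89.7 and 79.4 FPKM in U87MG and 71.9, 81.7 and 85.98 FPKM in U87TR, with overlap, and did not pass. The difference between the changes was 1.38 (adjusted p = 0.00652, SE 0.35), and 0.99 without U251MG replicate 2.

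The level of MCM5 relative to the other subunits of the ring also differed between lines. Its FPKM, as a percentage of the mean of the other 5 subunits, was 34.9% ± 7.89 in U251MG, 12.1% ± 1.18 in U251TR, 114% ± 2.87 in U87MG and 97.5% ± 7.08 in U87TR (SD, n = 3). In U251MG it was 44.0% in replicate 2 and 29.9% and 30.9% in the others. In U251TR the lowest of the other 5 was MCM6, at 18.3 to 18.8 FPKM. The log2 fold changes of MCM2, MCM3, MCM4, MCM6 and MCM7 in U251TR were -0.12, -0.10, -0.32, -0.11 and -0.05, with adjusted p of 0.114 to 0.795 by limma. Without U251MG replicate 2 they were 0.16, 0.14, -0.07, 0.14 and 0.14, so 4 of the 5 changed sign, with adjusted p of 0.0593 to 0.426. MCM3 and MCM7 changed sign as TPM as well. Over the 12 libraries MCM2 lay between 40.2 and 73.6 FPKM, MCM3 between 56.97 and 108, MCM4 between 46.6 and 115 and MCM7 between 88.5 and 165.

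MCM6 was at 32.2, 32.7 and 31.8 FPKM in U87MG and 53.02, 54.9 and 54.7 FPKM in U87TR, with narrow groups that did not overlap. Its fold change on the log2 scale was 0.73 (adjusted p = 0.00519, SE 0.16). The gene was at 16.8, 29.1 and 16.6 FPKM in U251MG and 18.3, 18.6 and 18.8 FPKM in U251TR, where the groups overlap. The difference between the changes was 0.85 (adjusted p = 0.00907, SE 0.23), and 0.59 without U251MG replicate 2.

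Of the helicase activation genes, CDC45 passed in U251TR. CDC45, the factor that joins MCM and GINS into the active helicase, was at 20.3, 23.8 and 19.99 FPKM in U251MG and 29.99, 28.8 and 28.5 FPKM in U251TR, without overlap. The log2 fold change was 0.43 (adjusted p = 0.000864, SE 0.08), and 0.51 without U251MG replicate 2. It was the 1 gene of 6 in this group that rose in U251TR on all libraries, and 4 of 6 rose without U251MG replicate 2, which added MCM10, GINS2 and GINS3 (log2 fold changes of 0.47, 0.44 and 0.35). CDC45 was at 32.5, 32.05 and 30.6 FPKM in U87MG and 29.04, 32.2 and 32.5 FPKM in U87TR, which overlap. MCM10, which helps the helicase leave the origin, lay between 5.73 and 11.2 FPKM over the 12 libraries.

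The GINS subunits, 4 proteins of 1 complex, did not follow each other in U87TR. GINS4 was at 46.4, 43.8 and 36.8 FPKM in U87MG and 20.4, 22.9 and 17.5 FPKM in U87TR, without overlap. This was a log2 change of -1.03 (adjusted p = 0.0479, SE 0.35), and this call was lost under 17 of 23 alternatives (adjusted p of 0.0508 to 0.131), among them any library left out other than U251MG replicates 1 and 2. The U251MG libraries of GINS4 were at 15.5, 59.1 and 21.4 FPKM, with a coefficient of variation of 73.8%, the highest of the 36 genes in U251MG, and they enter its shared spread. Without U251MG replicate 2 the adjusted p in the U87 pair was 0.000207. GINS3 rose in U87TR, from 11.1, 10.1 and 8.21 FPKM to 14.2, 14.4 and 15.7 FPKM, a log2 fold change of 0.55 (adjusted p = 0.0151, SE 0.15). That call was lost without U87MG replicate 3 or U87TR replicate 3 (adjusted p of 0.0514 to 0.0555). GINS1 and GINS2 did not pass in U87TR, with means of 6.90 ± 1.30 and 13.5 ± 1.70 FPKM in U87MG and 6.37 ± 1.07 and 13.3 ± 0.937 FPKM in U87TR (SD, n = 3).

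Of the polymerase and primase genes, PRIM1 was the 1 of 5 that passed in U251TR on all libraries. PRIM1, the catalytic subunit of primase, was at 9.05, 14.9 and 9.76 FPKM in U251MG and 18.9, 17.3 and 19.6 FPKM in U251TR, without overlap. On the log2 scale it changed by 0.71 (adjusted p = 0.00169, SE 0.15), and 0.91 without U251MG replicate 2. In U87MG it was at 16.9, 15.7 and 13.8 FPKM and in U87TR at 15.2, 16.1 and 15.7 FPKM, which overlap. POLD1 and POLE2, subunits of polymerases delta and epsilon, were called as well without that replicate, at 0.65 and 0.62. POLE2 had the lowest mean level of the 36 genes, at 3.33, 6.69 and 3.57 FPKM in U251MG and 6.40, 5.00 and 6.25 FPKM in U251TR, and at 6.90, 5.53 and 5.72 FPKM in U87MG and 6.43, 6.69 and 7.30 FPKM in U87TR. Both pairs overlap, and POLD1 lay between 20.99 and 46.5 FPKM over the 12 libraries. POLE, the catalytic subunit of polymerase epsilon, was at 17.9, 22.1 and 16.8 FPKM in U251MG, 18.9, 22.5 and 15.6 in U251TR, 23.3, 24.7 and 22.1 in U87MG and 20.6, 19.03 and 19.96 in U87TR. The U251 groups overlap and all U87TR libraries lay below all U87MG libraries, and POLE passed in neither pair. POLA1, the catalytic subunit of polymerase alpha, had means of 16.6 ± 3.08 and 13.5 ± 1.32 FPKM in U251MG and U251TR (SD, n = 3) and passed in neither pair.

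Of the clamp loader genes RFC2, RFC3 and RFC5 rose in U251TR, and PCNA, the clamp, did not pass. RFC2, RFC3 and RFC5 are small subunits of the loader that opens PCNA around DNA. RFC2 was at 43.9, 46.6 and 48.1 FPKM in U251MG and 75.7, 79.4 and 86.7 FPKM in U251TR, and the groups were far apart. Its fold change on the log2 scale was 0.79 (adjusted p = 1.06e-05, SE 0.09), and it was 0.79 without U251MG replicate 2. RFC2 lies on chromosome 7, where the median of the tested genes in U251TR was 0.34. In U87MG it was at 40.3, 37.9 and 36.9 FPKM and in U87TR at 37.6, 41.98 and 45.4 FPKM, which overlap. RFC3 and RFC5 had log2 fold changes of 0.67 (adjusted p = 0.00331, SE 0.16) and 0.72 (adjusted p = 0.000208, SE 0.11), which became 0.82 and 0.86 without that replicate. RFC4, a further small subunit, did not pass on all libraries and passed without replicate 2 (0.42). Over the 12 libraries RFC3 lay between 9.21 and 22.3 FPKM, RFC4 between 38.9 and 75.4 and RFC5 between 18.8 and 36.9. PCNA was at 96.01, 183 and 100.1 FPKM in U251MG and 104, 108 and 99.95 FPKM in U251TR, so that replicate 2 alone lay well above the rest. Its log2 fold change was -0.22 on all libraries and 0.08 without replicate 2, and it passed in neither fit.

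FEN1, the nuclease that trims flaps between Okazaki fragments, was at 36.9, 66.2 and 36.7 FPKM in U251MG and 68.7, 70.3 and 73.2 FPKM in U251TR. Every U251TR library was higher, if only just above U251MG replicate 2. The log2 fold change was 0.65 (adjusted p = 0.0109, SE 0.19), 0.92 without replicate 2, and the call was lost without U251MG replicate 3 (adjusted p = 0.0506). FEN1 was at 76.2, 73.9 and 60.5 FPKM in U87MG and 44.7, 48.9 and 52.05 FPKM in U87TR, with all U87TR libraries lower. That change of -0.52 (adjusted p = 0.0556, SE 0.19) did not pass on all libraries. It passed under 7 of 23 alternatives, among them without U251MG replicate 2 (adjusted p = 0.000972) and with only the U87 groups in the fit. The difference between the changes was -1.17 (adjusted p = 0.00322, SE 0.26), and -1.44 without U251MG replicate 2.

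Cyclin E, the CDK2 partner that drives entry into S phase, is encoded by CCNE1, which rose in U251TR, and by CCNE2. CCNE1 was at 7.33, 10.3 and 6.91 FPKM in U251MG and 18.4, 16.9 and 18.2 FPKM in U251TR, without overlap. This was a log2 change of 1.05 (adjusted p = 2.39e-05, SE 0.13), and 1.21 without U251MG replicate 2. The values were 9.83, 10.02 and 8.52 FPKM in U87MG and 9.76, 9.23 and 9.18 FPKM in U87TR, which overlap, and the difference between the changes was -1.06 (adjusted p = 0.000465, SE 0.18), or -1.22 without U251MG replicate 2. CCNE2 was at 2.71, 6.96 and 2.76 FPKM in U251MG and 6.34, 5.97 and 3.69 FPKM in U251TR, with overlap. It passed in U251TR without replicate 2 (0.73, adjusted p = 0.00937) and not on all libraries. CCNE2 was at 9.0, 7.61 and 5.48 FPKM in U87MG and 11.4, 9.84 and 10.3 FPKM in U87TR, with all U87TR libraries higher, and its change of 0.48 (adjusted p = 0.23, SE 0.28) did not pass.

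SLBP, which binds the stem-loop of histone messages and is needed for their processing, had the lowest coefficient of variation of the 36 genes in 3 of the 4 lines and went opposite ways. It was at 46.8, 62.4 and 46.99 FPKM in U251MG and 36.9, 36.96 and 37.04 FPKM in U251TR, all below the parent. On the log2 scale it changed by -0.47 (adjusted p = 0.00152, SE 0.10), and -0.33 without U251MG replicate 2. In U87MG it was at 54.8, 54.2 and 55.6 FPKM and in U87TR at 68.8, 69.9 and 71.4 FPKM, all above the parent. That log2 fold change was 0.35 (adjusted p = 0.02, SE 0.10), and the call was lost under 4 of 23 alternatives, each time with 1 library left out: U87MG replicate 1 or 2, or U87TR replicate 2 or 3 (adjusted p of 0.0539 to 0.0639). The difference between the changes was 0.82 (adjusted p = 0.000477, SE 0.14), and 0.68 without U251MG replicate 2.

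The 2 CAF-1 subunits, which place histones on new DNA, also differed from each other in U251TR. CHAF1B was at 3.98, 6.59 and 3.83 FPKM in U251MG and 7.72, 8.39 and 7.94 FPKM in U251TR, without overlap, a log2 fold change of 0.67 (adjusted p = 0.00381, SE 0.16), and 0.88 without U251MG replicate 2. In U87MG it was at 13.3, 10.6 and 10.2 FPKM and in U87TR at 9.59, 10.9 and 10.5 FPKM, which overlap. CHAF1A was at 20.5, 31.7 and 20.02 FPKM in U251MG and 18.6, 16.2 and 16.7 FPKM in U251TR, all lower. Its log2 fold change was -0.44 (adjusted p = 0.0263, SE 0.15), which became -0.23 and no longer passed without U251MG replicate 2 (adjusted p = 0.051). The call was lost under 6 of 23 alternatives in all (adjusted p of 0.051 to 0.0877), among them without U251TR replicate 2 or 3.

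Between the parental lines, U87MG was the higher one for most of the genes that differed. Of the 36 genes, 17 were higher in U87MG than in U251MG, against 32.2% of all genes, and 8 were lower, against 40.1%. The groups did not overlap for 23 of them, against 72.3% of all genes. The median log2 difference was 0.43 over the 36 genes and -0.09 over all genes. Without U251MG replicate 2 the counts were 27 higher, against 34% of all genes, and 6 lower, against 40.5%. RRM2 had the largest difference towards U87MG, 2.27 (adjusted p = 3.55e-06, SE 0.24), and ORC6 the largest towards U251MG, -1.05 (adjusted p = 2.84e-06, SE 0.11). MCM5 was next after RRM2, at 1.91 (adjusted p = 1.91e-05, SE 0.25). Without replicate 2 these were 2.66 for RRM2, -1.14 for ORC6 and 2.30 for MCM5. On all libraries U251MG had the lowest mean of the 4 groups for 19 genes, and the highest mean was in U87MG for 12 genes, in U251TR for 10, in U87TR for 9 and in U251MG for 5. The 36 genes made up 0.177% ± 0.0509 of the summed FPKM in U251MG, 0.231% ± 0.00162 in U251TR, 0.239% ± 0.0160 in U87MG and 0.254% ± 0.00531 in U87TR (SD, n = 3). The U251MG value was 0.236% in replicate 2 and 0.145% and 0.151% in the others.

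Further genes of the same processes were counted beside the same background. Of 82 genes for origins, forks, nucleotide supply and S-phase control, 35 rose in U251TR (42.7%, against 33.6% of all tested genes) and 11 fell (13.4%, against 19.6%). The counts were 46 and 13 without U251MG replicate 2, or 56.1% against 36.5% and 15.9% against 21.5%. In U87TR 4 rose (4.88%, against 10.6%) and 9 fell (10.98%, against 17.2%), and 5 and 17 without that replicate, against 13.9% and 22.4%. By group, 6 of 14 origin genes (42.9%), 12 of 24 fork enzymes (50%), 7 of 25 nucleotide genes (28%) and 10 of 19 histone chaperone and S-phase genes (52.6%) rose in U251TR, against the same 33.6%. The median log2 fold change of the 82 genes was 0.26 in U251TR, 0.36 without U251MG replicate 2, and -0.13 in U87TR.

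In U251TR the largest gains of this set at 5 FPKM or more were in genes of different kinds. CDKN1A, the CDK inhibitor p21, was at 57.03, 34.7 and 54.8 FPKM in U251MG and 135, 109.9 and 148 FPKM in U251TR, without overlap, a log2 fold change of 1.43 (adjusted p = 1.48e-05, SE 0.16), and 1.203 without U251MG replicate 2. U251MG replicate 2 had its lowest value. POLE4, a small subunit of polymerase epsilon, the repressor E2F8 and SAMHD1, which breaks down deoxynucleotides, had log2 fold changes of 1.28, 1.27 and 1.23, and 1.29, 1.55 and 1.42 without that replicate. The largest falls were in TOP1, the topoisomerase that relaxes DNA ahead of the fork (-0.94), DCTD, dCMP deaminase (-0.63), RBL2, a pocket protein that represses E2F targets (-0.56), and CDKN1B, the CDK inhibitor p27 (-0.49). The falls were -1.27, -0.70, -0.38 and -0.58 without U251MG replicate 2.

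In U87TR the E2F repressor E2F7 was nearly undetected. It was at 32.2, 28.2 and 24.4 FPKM in U87MG and listed at 0, 0.02 and 0.02 FPKM in U87TR, a log2 fold change of -4.84 (adjusted p = 4.55e-08, SE 0.24). The added 1 FPKM sets the size of that value, which was -2.72 with 5 FPKM added and -7.96 with 0.1 FPKM added. The U251 libraries were between 12.3 and 28.4 FPKM. RNASEH2B and RNASEH2C, subunits of the ribonuclease that removes ribonucleotides from DNA, went opposite ways, at 1.78 (adjusted p = 2.51e-06, SE 0.14) and -1.35 (adjusted p = 6.15e-07, SE 0.09). POLA2, the accessory subunit of polymerase alpha, fell from 28.9, 28.9 and 24.6 FPKM to 9.80, 10.8 and 11.9 FPKM, a log2 fold change of -1.27 (adjusted p = 0.000224, SE 0.18). E2F2, an activator of S-phase genes, had 0.99 (adjusted p = 0.00263, SE 0.19). FBXW7, which marks cyclin E for breakdown, rose by less, at 0.36, and CHTF18 of an alternative clamp loader fell, at -0.71. The call for CHTF18 was lost under 10 of 23 alternatives (adjusted p of 0.0502 to 0.118).

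Several of these genes share a chromosome with a broad shift. In U87TR the 686 tested genes of chromosome 11 had a median log2 fold change of -0.26, against -0.06 over all genes with a chromosome, and 41.4% of them were lower. RRM1, FEN1, POLA2 and RNASEH2C lie on that chromosome. Chromosome 18 had the same median of -0.26, with 44.9% of 176 genes lower, and TYMS, which lies there, had a log2 fold change of 0.29. In U251TR the medians were 0.36 on chromosome 1, 0.33 on chromosome 2 and 0.34 on chromosome 7, against 0.10 over all genes with a chromosome. ORC1 lies on chromosome 1, RRM2, MCM6 and POLE4 on chromosome 2, and RFC2 and MCM7 on chromosome 7. Chromosome X went the other way in U251TR, with a median of -0.22 and 45% of 460 genes lower. POLA1, which lies there, had a log2 fold change of -0.27 and did not pass. The part of these shifts in the results of single genes was not tested.

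Genes of G2 and mitosis were higher in U251TR as well. Of 24 such genes 20 rose there (83.3%, against 33.6% of all tested genes) and 0 fell, and their median change was 0.62 on the log2 scale. Leaving out U251MG replicate 2, 21 rose (87.5%, against 36.5%), with a median of 0.75. In U87TR 2 rose (8.33%, against 10.6%) and 1 fell (4.17%, against 17.2%), with a median of -0.05, and 5 rose and 4 fell without that replicate. Mitochondrially encoded transcripts, often read as a sign of RNA quality, fell in U251TR for 7 of 13 genes (53.8%, against 19.6%), with a median of -0.32, and 0 rose. The counts were 7 lower and 1 higher without U251MG replicate 2, with a median of -0.27. In U87TR 1 rose (7.69%, against 10.6%) and 3 fell (23.1%, against 17.2%). The part of the cell cycle or of RNA quality in the results above was not tested.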

How the data were processed

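The authors deposited a table of gene expression by symbol. No header states its unit, which was taken from the values as FPKM, deposited to 2 decimals. Per the submitters' processing notes, STAR 2.5.2b and RSEM 1.2.31 were used. Those notes name hg19 and the design text names hg38, so no coordinates were taken from either, and promoter windows and their coordinates come from RefSeq on GRCh38.p14. Per the labels, RNA had an integrity number of at least 6.8.

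The 27 names turned into dates were left out. Genes that reached 1 FPKM in at least 3 libraries (15449) were fitted as log2(FPKM + 1) in limma 3.58.1 (R 4.3.3), with a group-means model on 12 libraries, trend and robust moderation. The added 1 FPKM understates the change of low genes. Adjusted p-values are Benjamini-Hochberg over all genes tested, two-sided, with a threshold of 0.05. The unit keeps no depth, so no counting interval is given. The members and gene lists were chosen with earlier results of these data known. RBL1, listed for the pathway, was not used here.

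Values in every library are given for the member of each role group with the largest change in each line, members called in both lines, the largest parental differences, and the highest and lowest mean level, with some others added after their values were seen. Other pathway genes are named for the 4 largest changes per direction at 5 FPKM or more, and 1 gene named by that rule is not reported here. On simulated data with 15449 genes, 67.2%, 98.5% and 98.5% of 1.5-, 2- and 4-fold changes were recovered for U251TR and 71.6%, 98.5% and 100% for U87TR. Only 66 or 67 genes of each size were changed, all above a set level in the parent, with noise independent between genes. The rates therefore do not cover genes of lower level, nor a library that shifts many genes together. Alternatives were other pseudocounts, filters, scalings and moderation, a fit of the groups compared, a replicate block, a 2-fold limit and each library left out. Leaving out U251MG replicate 2 and U87MG replicate 3 together was added after the data were seen.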

Additional observations from a re-analysis of the deposited data

Results flagged for a closer look

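The change on resistance differed between the U87 and the U251 lines, by the limma test of the difference itself, for 15 of the 36 genes (41.7%, against 47.6% of all tested genes), so the share is not above the background. It differed for 13 of 16 other pathway genes, which were picked for a large change in 1 line, a choice that favours a difference. The values are the log2 change in U87TR minus that in U251TR. Among the 36 genes the difference was -1.64 for RRM1, -1.48 for CDT1, -1.17 for FEN1, -1.06 for CCNE1, -1.03 for RRM2, -0.94 for RFC5, -0.79 for CHAF1B and -0.72 for RFC3. It was -0.69 for PRIM1, -0.68 for RFC2, -0.52 for TYMS and -0.46 for CDC45. It was 1.38 for MCM5, 0.85 for MCM6 and 0.82 for SLBP. Of these 15, CDT1, MCM5, MCM6, RFC2, RFC5, FEN1, RRM1, CCNE1 and SLBP passed under each of the 22 alternatives run. CDC45, PRIM1 and RFC3 were lost with median-of-ratios factors and with quantile normalization, and CHAF1B with the latter (adjusted p of 0.0531 to 0.0739). RRM2 and TYMS were lost under 7 and 8 of them (adjusted p of 0.0527 to 0.0634 and 0.0533 to 0.142).

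Among the other pathway genes the difference was -4.43 for E2F7, whose size is set by the added 1 FPKM, -2.08 for POLA2, -1.54 for CDKN1A, -1.36 for SAMHD1 and -1.33 for CHTF18. It was -1.27 for RNASEH2C, -1.02 for POLE4 and -0.97 for E2F8. It was 1.67 for RNASEH2B, 0.78 for TOP1, 0.77 for FBXW7, 0.47 for CDKN1B and 0.43 for DCTD.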

How the results depend on the processing

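Of the calls on the 36 genes, 14 of 18 in U251TR, 2 of 6 in U87TR, 9 of 15 in the difference and 18 of 25 between the parents were kept under every alternative that recomputes the fit. With 1 library left out, the number called ran from 15 to 25 in U251TR, 3 to 15 in U87TR, 13 to 23 in the difference and 22 to 33 between the parents. The highest counts came without U251MG replicate 2, and the lowest in U87TR (3) without U87MG replicate 1 or U87TR replicate 3. With U251MG replicate 2 and U87MG replicate 3 both left out, 29 were called in U251TR, 15 in U87TR and 26 in the difference. With a 2-fold limit, 4, 1 and 6 were called, and 9 between the parents. With only the groups compared in the fit, 12 were called in U87TR. The fold changes are the same in that fit, and what differs is the estimate of the spread and its moderation. In U251TR the sign turned, without U251MG replicate 2 and without both libraries, for MCM2 (0.16), MCM3 (0.14), MCM6 (0.14), MCM7 (0.14) and PCNA (0.0811). It turned as TPM for MCM3 (0.00876) and MCM7 (0.066). Without U251MG replicate 2 it turned as well for GINS1 (from -0.12 to 0.12) and GINS4 (from -0.18 to 0.37). With 1 library left out, the log2 fold changes in U251TR ran from -0.26 to 0.16 for MCM2, -0.24 to 0.14 for MCM3, -0.24 to 0.14 for MCM6, -0.15 to 0.14 for MCM7 and -0.38 to 0.0811 for PCNA. MCM10 between the parents ran from -0.0331 to 0.39. In the difference the sign turned with median-of-ratios factors for MCM2 (0.0208) and with quantile normalization for GINS2 (0.0214) and POLE2 (0.0711). Without U251MG replicate 2 it turned for MCM7 (0.01 to -0.17), GINS1 (0.03 to -0.21), CCNE2 (0.11 to -0.25) and CHAF1A (0.11 to -0.10). Under the other alternatives the sign was followed for only part of the 36 genes.

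Replicate numbers did not pair the libraries: deviations of same-numbered libraries of a parent and its subline correlated at -0.06 to 0.12 across genes, and 2 of 6 libraries of each line correlated best with their own number. With the replicate block, 15 higher and 3 lower were called in U251TR, 3 and 3 in U87TR, 3 and 12 in the difference, and 18 and 8 between the parents. Library depth is unknown here, so which calls it limits was not tested.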
